A study of Mus musculus with 13 samples.

Results

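Ngfr and the neurotrophin genes were followed as a group of 6 genes, Ngfr, Bdnf, Ntf3, Ntrk2, Ntrk3 and Sort1, out of 32285 genes listed for mouse mammary fibroblasts. The members were chosen by name, with earlier results of these data known, and Ngfr was selected on its higher level under hormone treatment, so its value in that contrast is a description and carries no test. The cells had been profiled singly in droplets by 3′ RNA sequencing, in which each captured RNA molecule is counted once as a unique molecular identifier (UMI). Levels are given as CPM, the UMIs of a gene per 1000000 UMIs of the summed fibroblast barcodes of a library.

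The 13 libraries fell into 9 groups. The 5 stage libraries came from wild-type C57BL/6 females at puberty (4 weeks), in the adult virgin (9 weeks), at day 14.5 of pregnancy, at day 10 of lactation and at day 4 of involution, with 1 library of 2 pooled females a stage. The hormone experiment used wild-type C57BL/6 females of 9 weeks given a placebo or MPA+E, medroxyprogesterone acetate (a synthetic progestin) with estrogen, in 2 libraries each. All of these cells were sorted as negative for lineage markers and for CD24. The remaining 4 libraries were sorted GFP+ cells of raGFP-Wnt1 mice (Pdgfra-GFP KI/+ with MMTV-Wnt1 T/+, mixed C57BL/6 and FVB), taken from a tumour and from hyperplastic gland of the same mouse, with mouse 1 at 45 weeks and mouse 2 at 17 weeks. In this model the MMTV promoter drives the Wnt1 transgene in mammary epithelium, and the GFP allele marks cells that express Pdgfra. Wild-type and raGFP-Wnt1 libraries therefore differed in genotype, strain, sort and age, and these cannot be told apart.

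Neurotrophins are secreted growth factors best known from the nervous system, where they support the survival and growth of neurons. Bdnf and Ntf3 encode brain-derived neurotrophic factor and neurotrophin-3. Ntrk2 (TrkB) and Ntrk3 (TrkC) encode receptor tyrosine kinases, TrkB being the main receptor for BDNF and TrkC for neurotrophin-3. Ngfr encodes p75, a receptor of the tumour necrosis factor receptor family that binds all neurotrophins, and Sort1 encodes sortilin, a sorting receptor that joins p75 in binding the uncleaved pro-forms. In skin and gland tissue p75 is also used as a marker of Schwann cells and of some stromal cells.

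On GRCm38 in GENCODE M21, Ngfr lies on chromosome 11 from 95568818 to 95587735 on the minus strand, with 1 transcript. Bdnf lies on chromosome 2 from 109674700 to 109727007 on the plus strand, with 11 transcripts, and Ntf3 on chromosome 6 from 126101412 to 126166910 on the minus strand. Ntrk2 spans 58806569 to 59133970 of chromosome 13 on the plus strand with 10 transcripts, of which 7 are coding, and Ntrk3 spans 78175959 to 78738012 of chromosome 7 on the minus strand with 20 transcripts, of which 6 are coding. Sort1 lies on chromosome 3 from 108284082 to 108361511 on the plus strand. Both Trk genes make full-length and kinase-lacking forms, which counts per gene cannot separate. A RefSeq promoter window (GRCm38.p6, 250 bases before to 50 after a start site) was found for 4 of the 6 members. Ntrk3 and Sort1 had no window.

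The Ngfr window and 1 of the 7 Bdnf windows are shown because the results below turn on these genes, Ngfr under hormones and Bdnf in tumours. Capitals mark GC boxes (GGGCGG on either strand), short GC-rich motifs common in promoters. The Bdnf window is the one of its 7 with the most GC boxes, and 3′ counts do not tell which start site was used.
Ngfr, chr11:95587649-95587948, minus strand: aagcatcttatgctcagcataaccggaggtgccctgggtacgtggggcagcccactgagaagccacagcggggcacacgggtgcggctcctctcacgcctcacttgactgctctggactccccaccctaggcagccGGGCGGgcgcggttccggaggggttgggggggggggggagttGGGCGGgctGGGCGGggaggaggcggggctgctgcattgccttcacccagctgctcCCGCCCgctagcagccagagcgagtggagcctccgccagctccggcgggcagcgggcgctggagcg
Bdnf, chr2:109676782-109677081, plus strand: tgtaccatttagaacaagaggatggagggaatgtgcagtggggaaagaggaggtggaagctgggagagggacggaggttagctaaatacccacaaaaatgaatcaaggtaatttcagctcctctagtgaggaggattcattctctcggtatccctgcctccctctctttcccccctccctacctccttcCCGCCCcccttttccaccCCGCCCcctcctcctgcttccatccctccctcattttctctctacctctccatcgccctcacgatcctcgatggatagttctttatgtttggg
The Ngfr window held 4 GC boxes and was 71.7% G and C, against a median of 52.7% over the 32851 windows. A GC box stood in 35.7% of all windows. The full estrogen response element GGTCANNNTGACC stood in 0.070% of windows, the steroid receptor inverted repeat ACANNNTGT in 6.85% and the TCF core CTTTGAT in 3.73%, searched on both strands. The estrogen response element and the TCF core were found in none of the windows of Ngfr, Bdnf, Ntf3 and Ntrk2, and the inverted repeat in 3 of the Bdnf windows (not the one shown) and in no other. A match or its absence is a description of the letters only.

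Fibroblast barcodes were those with Dcn, Lum and Col1a2 at 50 or more of 10000 UMIs and with no UMI of a marker of 6 other lineages. They numbered 100523 of 120355 barcodes, from 4236 to 11951 in a library, with 47521842 to 102522735 summed UMIs and a median of 3990 to 20256 UMIs a barcode. Fibroblast markers were abundant in each library, with Dcn, Lum, Col1a2 and Pdgfra all detected. Summed Schwann markers were at 15.6 to 79.5 CPM of fibroblasts, and 98 barcodes passed a separate Schwann gate. Between 183 and 411 barcodes of a library also occurred in another library.

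Ngfr had the widest range of the members across the stages. It stood at 34.1 CPM at puberty, 26.7 in the adult, 7.87 during pregnancy, 0.476 during lactation and 5.75 during involution. The puberty library was highest and the lactation library lowest, with 1661 and 30 UMIs. The ratio of puberty to lactation was 71.6 (95% interval 49.96 to 106), and that of involution to lactation was 12.1 (8.33 to 18.1). With 1 library a stage there is no test, and intervals cover counting error only. Summed Schwann markers of the same fibroblasts were also highest at puberty, at 79.5 CPM, and lowest during lactation, at 31.3 CPM, with 35.6 to 40.003 CPM at the other stages. With every barcode holding a Schwann-marker UMI left out, the ratio of puberty to lactation was 79.9 (51.5 to 131). In these sums, fewer cells with the transcript and less of it per cell cannot be told apart.

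Bdnf ran in another order. Its levels were 2.44 CPM at puberty, 2.09 in the adult, 5.41 during pregnancy, 6.17 during lactation and 11.6 during involution. Involution was 5.54 times the adult level (4.67 to 6.63). Puberty and adult did not differ beyond counting error (ratio of adult to puberty 0.854, 0.668 to 1.09). Lactation was 1.14 times pregnancy (0.973 to 1.34). Of the 257 Bdnf UMIs of pregnancy, 64 came from 138 barcodes of a cluster led by Krt14, Acta2 and Cnn1 with epithelial markers raised. Without that cluster Bdnf was at 4.14 CPM in pregnancy and lactation was 1.49 times higher (1.25 to 1.78), beyond counting error.

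Ntf3 was at 18.5 CPM at puberty, 16.2 in the adult, 14.4 during pregnancy, 10.9 during lactation and 14.2 during involution, 1.70 times higher at puberty than in lactation (1.54 to 1.88). Ntrk2 was at 155, 154, 150.4, 99.0 and 106 CPM in the same order, 1.56 times higher at puberty than in lactation (1.51 to 1.62). The first 3 of these Ntrk2 levels lay within counting error of their neighbours (adult to puberty 0.994, 0.966 to 1.02, and pregnancy to adult 0.977, 0.948 to 1.01), and the last 2 lay well below them. Ntrk3 was at 4.29, 2.65, 5.22, 3.95 and 3.14 CPM. The higher pregnancy level, 1.97 times the adult one (1.62 to 2.38), rested on the same cluster, which held 109 of the 248 Ntrk3 UMIs of pregnancy. Without it Ntrk3 was at 2.98 CPM in pregnancy and its ratio to the adult was 1.12 (0.896 to 1.40), within counting error. This alternative was added after seeing the data. Pregnancy was also the library whose fibroblasts held most epithelial markers, 30.7 CPM summed over Epcam, Krt8, Krt18 and Krt14 against at most 1.30 elsewhere, and with other-lineage barcodes kept the Ntrk3 ratio was 2.71. Sort1 was at 4.47, 2.78, 4.21, 6.89 and 5.91 CPM, highest in lactation at 2.48 times the adult level (2.10 to 2.94).

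**Figure D1:**
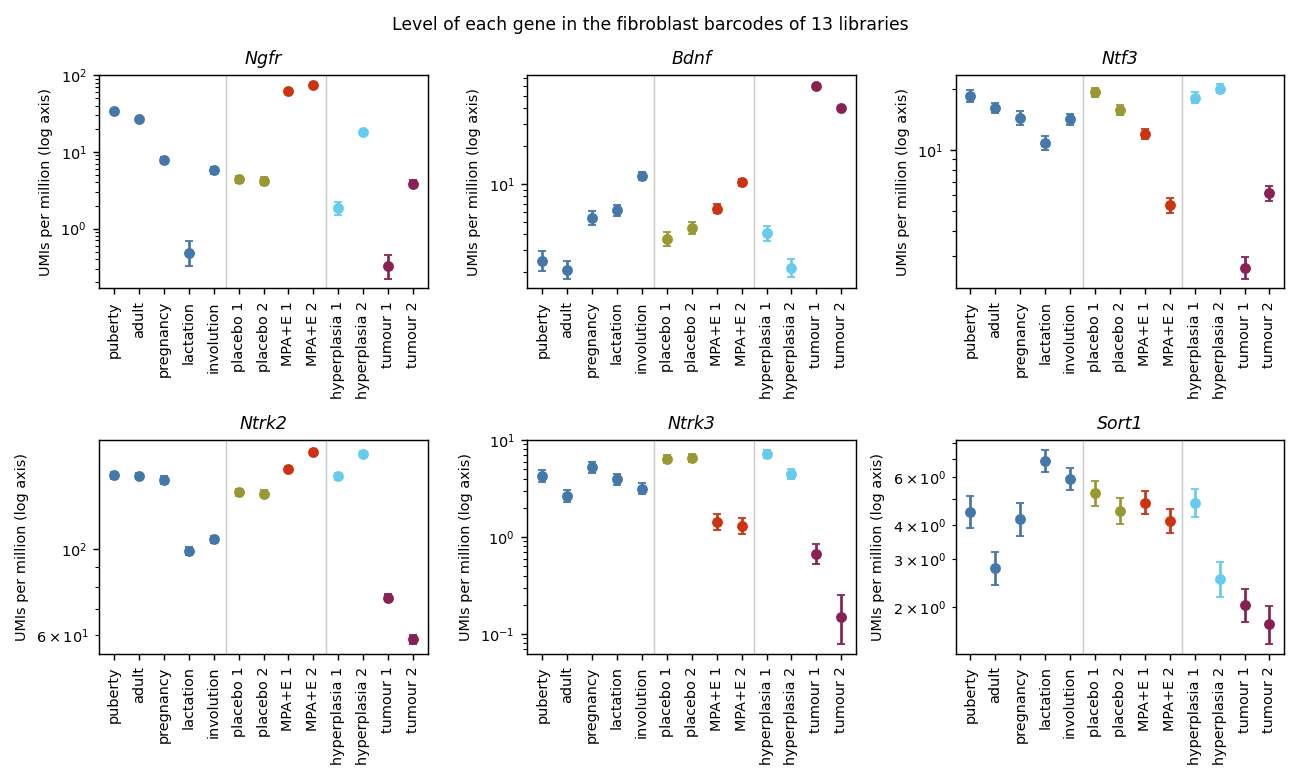
Level of each member (CPM, log axis) in the fibroblast barcodes of the 13 libraries, with exact 95% Poisson intervals as bars, which cover counting error only. Ngfr is lowest in lactation and tumour 1 and highest under MPA+E, and Bdnf is highest in the 2 tumours.

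Under MPA+E, Ngfr was higher in both libraries. It was at 4.41 and 4.20 CPM under placebo and at 63.0 and 74.8 CPM under MPA+E. The groups did not overlap, and both MPA+E libraries also lay above every stage. The fitted log2 fold change was 4.02, a 16.2-fold difference, given without a test since it led to the choice of the gene. The placebo libraries lay below the adult virgin of the same age and strain, in which Ngfr was 6.07 and 6.36 times the level of placebo 1 and 2. The adult was another experiment, with a median of 5805 UMIs a fibroblast against 14158 and 12475 under placebo, and experiment and placebo cannot be told apart.

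The share of fibroblasts with an Ngfr UMI showed the same order after each barcode was thinned to 3000 UMIs. It was 1.26% and 1.11% under placebo and 12.5% (11.6 to 13.5%) and 14.1% (13.4 to 14.9%) under MPA+E, with exact binomial intervals. The difference between the group means was 12.1 percentage points, and 27.2 without thinning. In endothelial barcodes, taken as a type that should lack the gene, 0 of 57 had an Ngfr UMI in MPA+E 1 at the same thinned depth (upper bound 6.27%), with median depths of 4449 UMIs in endothelial and 16827 in fibroblast barcodes before thinning. Without thinning 1 Ngfr UMI was found in the 71 endothelial barcodes of that library (2.49 CPM), 10 in its 129 pericyte barcodes (10.3 CPM) and 2 in its 30 epithelial barcodes (5.53 CPM), against 63.0 CPM in its fibroblasts. Pericyte barcodes of placebo 1 and 2 held 2 and 0 Ngfr UMIs.

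Of the other 5 members, 1 passed the test between MPA+E and placebo. Over the whole table edgeR's quasi-likelihood test called 678 of 15642 genes, 4.33%, with 2.69% of genes higher and 1.64% lower under MPA+E at an adjusted p under 0.05. Ntrk3, the TrkC receptor, was at 6.36 and 6.50 CPM under placebo and at 1.44 and 1.31 CPM under MPA+E. It fell by 2.22 on the log2 scale (SE 0.15, edgeR adjusted p = 0.00716, lower in 2 of 2 libraries). With placebo 1 or placebo 2 left out, its adjusted p was 0.0515 and 0.0596.

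The ligands and the BDNF receptor gave values that did not pass. Bdnf was at 3.69 and 4.47 CPM with placebo and 6.37 and 10.4 CPM with MPA+E, a log2 difference of 1.05 (SE 0.31, edgeR adjusted p = 0.157). Ntf3 was at 19.3 and 15.9 CPM and at 12.0 and 5.34, a log2 difference of -1.02 (SE 0.35, edgeR adjusted p = 0.214). Neither pair of groups overlapped, a pattern whose share over all genes was not counted. Both genes passed by DESeq2 (adjusted p = 0.0194 and 0.0318). With MPA+E 1 left out they also passed by edgeR (adjusted p = 0.00855 and 0.00194), but that run sets the 1 remaining MPA+E library, the one farther from placebo for both genes, against a spread taken from the 2 placebo libraries alone. Ntrk2 was at 139.9 and 139 CPM and at 160.4 and 178 (log2 difference 0.29, SE 0.12, edgeR adjusted p = 0.308). Sort1 was at 5.23 and 4.52 CPM and at 4.84 and 4.16, with overlapping groups (log2 difference -0.10, SE 0.13). The summed Schwann markers of the fibroblasts were at 39.7 and 28.8 CPM with placebo and 37.4 and 34.8 CPM with MPA+E.

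**Figure D2:**
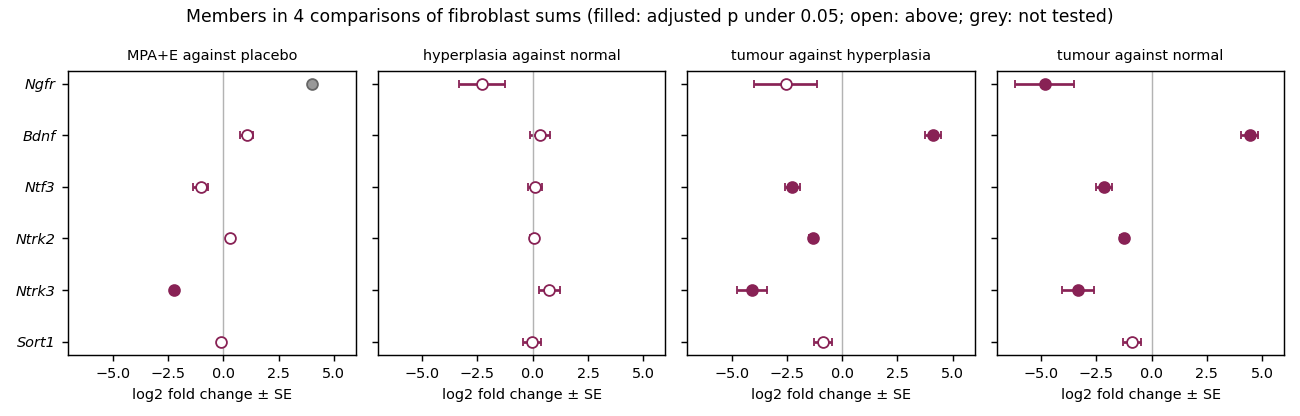
Log2 fold change (bars, SE) of each member in 4 comparisons of summed fibroblast counts, with filled points for an adjusted p under 0.05, open points above it and a grey point where no test was made. Ntrk3 is the filled point under MPA+E, and the tumour comparisons hold filled points for Bdnf, Ntf3, Ntrk2 and Ntrk3, with Ngfr filled against normal gland alone.

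Fibroblasts of each experiment were clustered without the members or the marker genes, and clusters were named by likeness to fibroblast states from marker lists. The names mean likeness only, the naming rule was set after the cluster tables were seen, and the levels by class are descriptions with no test. The progenitor class (Pi16, Dpp4) is taken for the least differentiated state, the preadipocyte class expresses lipid genes (Fabp4, Cd36), the ECM remodelling class expresses Crabp1 and Enpp2, the lobular class Bmp5 and Thbs4, and the adipogenesis-regulatory class Gdf10 and F3.

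MPA+E libraries lay above placebo libraries for Ngfr in 7 of 7 classes with at least 20 barcodes in each library. That pattern, all classes up without overlap, was met by 0.352% of the genes tested, and Ngfr was selected on this contrast. In the progenitor class Ngfr was at 0.452 and 0.932 CPM with placebo and 17.8 and 21.3 CPM with MPA+E. In the preadipocyte class it was at 8.56 and 8.34 CPM and at 83.7 and 86.3, and in the lobular class at 2.89 and 2.47 and at 75.1 and 67.6. Mean levels were 28.2 times higher in the progenitor class, 26.6 times in the lobular, 23.7 times in the adipogenesis-regulatory, 21.3 times in an unnamed class led by Ctla2a and Tgm2, 10.1 times in the preadipocyte and 6.72 times in the ECM remodelling class. The Spp1 Reln class held the most Ngfr under either condition, with placebo levels of 80.7 and 64.3 CPM and MPA+E levels of 167 and 307. That class was small, with 123 barcodes at a median depth 0.319 times that of their libraries.

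Ntrk3 lay below placebo without overlap in 6 of 7 classes, a pattern of at least 6 classes that was met by 2.04% of the genes tested. It was at 11.9 and 9.65 CPM in the progenitor class under placebo and at 1.77 and 0.788 under MPA+E. Ntf3 lay below placebo in 4 of 7 classes, against 11.8% of genes with at least 4 such classes. In the preadipocyte class it was at 24.3 and 15.9 CPM with placebo and 5.16 and 2.15 CPM with MPA+E. Bdnf lay above placebo in 3 of 7 classes, against 17.8% of genes with at least 3, and in the preadipocyte class it was at 5.21 and 6.54 CPM with placebo and 11.2 and 18.1 CPM with MPA+E. Sort1 lay below placebo in 3 of 7 classes, against 21.6% of genes with at least 3.

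Ntrk2 went in opposite directions between classes. In the progenitor class it was at 138 and 129 CPM with placebo and 206 and 239.7 CPM with MPA+E, 1.67 times higher in the mean. In the ECM remodelling class it was at 123 and 96.3 CPM with placebo and 23.2 and 27.1 CPM with MPA+E, a ratio of 0.229. In all it lay above placebo without overlap in 3 classes and below it in 3 of 7, a pattern of at least 3 classes each way that 0.237% of genes met, and the difference between classes was not tested. Among fibroblasts with an Ngfr UMI at 3000 UMIs, 38.4% and 42.1% also had an Ntrk2 UMI under MPA+E, against 29.7% and 31.8% of those without. The share was higher with Ngfr in 9 of 13 libraries, among them puberty (42.2% against 31.9%) and the adult (44.4% against 29.8%), and 3 of the 9 rested on few barcodes with Ngfr: 9 in tumour 1, 41 in tumour 2 and 53 in placebo 1. The exceptions were placebo 2 (28.2% against 30.8%), pregnancy (29.4% against 31.5%), lactation (18.2% against 24.3%) and hyperplasia 1 (15.6% against 33.0%), the last 2 from 11 and 32 barcodes with Ngfr. These shares come from a separate random thinning to 3000 UMIs, in which 53 of 4606 and 71 of 5415 placebo barcodes had an Ngfr UMI. Fibroblasts with both made up 4.99% and 5.93% under MPA+E and 0.369% in each placebo library.

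**Figure D3:**
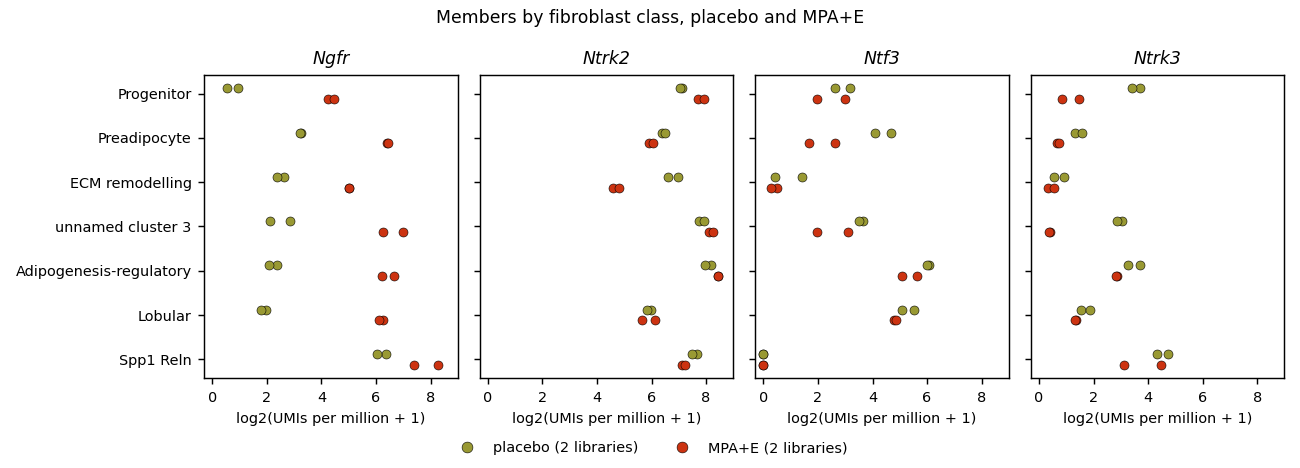
Ngfr, Ntrk2, Ntf3 and Ntrk3 by fibroblast class in the 2 placebo and 2 MPA+E libraries, as log2(CPM + 1), with 1 point a library. Ngfr is higher under MPA+E in all 7 classes shown, while Ntrk2 is higher in the progenitor class and lower in the ECM remodelling class.

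The classes of the stage libraries placed the members in different cells. Among 5 named classes, Ngfr at puberty was highest in the preadipocyte class. In that class it was at 82.2 CPM at puberty, 30.4 in the adult, 14.2 during pregnancy, 0.809 during lactation and 9.71 during involution. In the progenitor class it was at 29.0, 41.5, 2.58, 0.0882 and 2.18 CPM in the same order. That level depended on how finely the cells were clustered: at a resolution of 0.5 in place of 0.3 the progenitor class held Ngfr at 2.82, 6.83, 1.16, 0 and 1.35 CPM, and an unnamed cluster led by Pgr and Il31ra held it at 49.2, 67.8, 3.99, 0.319 and 4.53. The Spp1 Reln class then ranged from 14.2 CPM in lactation to 76.2 in pregnancy. The lactation value was the lowest of the 5 stages in each of the 5 classes. In the Spp1 Reln class, 176 barcodes in which 6 of 7 Schwann markers were raised, Ngfr was at 42.8 CPM at puberty, 44.7 in the adult, 102 during pregnancy, 35.7 during lactation (16 barcodes) and 100.9 during involution. Its median depth was 0.398 times that of its libraries. Whether Schwann RNA contributed to those levels was not tested.

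Ntf3 and Ntrk2 were high in the adipogenesis-regulatory class. Ntf3 was at 40.02 to 49.7 CPM there and at 34.2 to 48.0 in the lobular class over the 5 stages, and at most 2.17 CPM in the ECM remodelling class. Ntrk2 was at 259 to 358 CPM in the adipogenesis-regulatory class and at 26.2 to 101 in the ECM remodelling class. Bdnf was at 5.82 to 15.3 CPM in the ECM remodelling class and at most 1.58 in the lobular class, the reverse of Ntf3. In the preadipocyte class Bdnf was at 2.98, 3.81, 8.20, 12.8 and 22.8 CPM from puberty to involution. Sort1 was at 9.06 to 18.9 CPM in the lobular class and at 0.773 to 2.18 in the progenitor class. The cluster led by Krt14, Acta2 and Cnn1, with 138 of its 150 barcodes from pregnancy, held 126 CPM of Ntrk3 and 74.0 CPM of Bdnf in that library and was left unnamed.

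**Figure D4:**
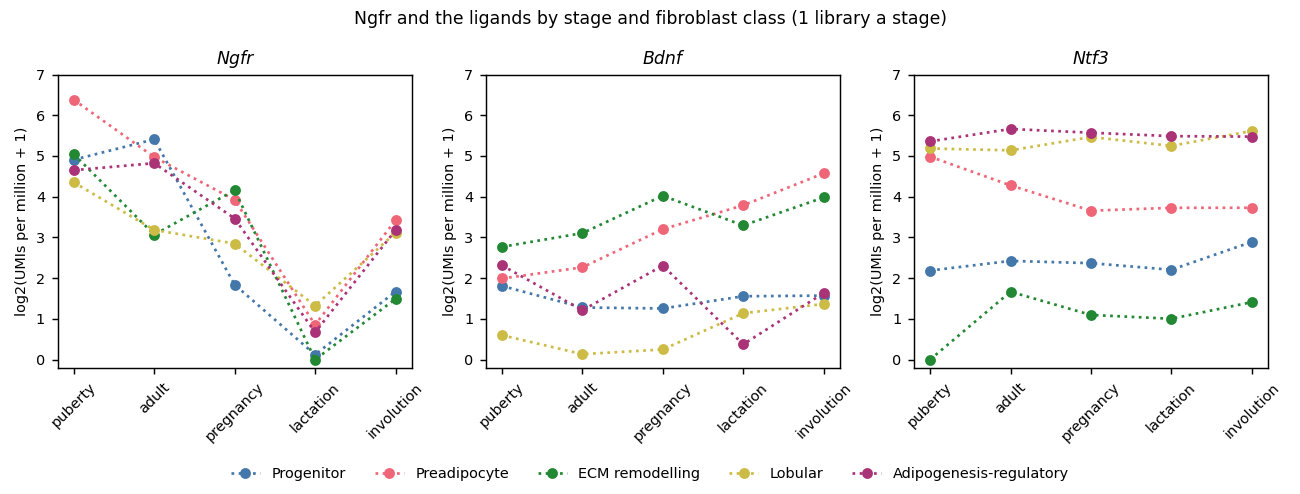
Ngfr, Bdnf and Ntf3 by stage in 5 named fibroblast classes, as log2(CPM + 1), with 1 library a stage and dotted lines only joining the points of a class. Ngfr is lowest in lactation in each class shown, Bdnf is highest in the preadipocyte class at involution, and Ntf3 stays near its level in the lobular and adipogenesis-regulatory classes.

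None of the 6 members passed the test between hyperplasia and normal gland, puberty and adult being joined as normal. Limma-voom called 14.0% of 16302 genes there, 7.7% higher and 6.29% lower. Ngfr was at 34.1 and 26.7 CPM in normal gland and at 1.86 and 18.0 in hyperplasia (log2 difference -2.30, SE 1.03, limma adjusted p = 0.164), and from -4.04 (without hyperplasia 2) to -0.79 (without hyperplasia 1) with 1 library left out. The 2 hyperplasia libraries differed 9.67-fold (7.92 to 11.9), hyperplasia 2 being the higher. The placebo libraries of wild-type gland, outside that fit, held Ngfr at 4.41 and 4.20 CPM. The other members had log2 differences between -0.03 and 0.75 with SEs from 0.19 to 0.47.

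In tumours Bdnf rose. It was at 4.05 and 2.15 CPM in the hyperplasia of mouse 1 and 2 and at 60.5 and 40.2 CPM in their tumours. Both tumours lay above all other libraries of the series. The log2 fold change from hyperplasia was 4.09 (SE 0.37, limma adjusted p = 0.00307), 17.1-fold, higher in 2 of 2 mice. Limma-voom called 29.3% of 16302 genes in this contrast, 15.4% higher and 13.9% lower. After thinning to 3000 UMIs, 11.2% and 8.17% of tumour fibroblasts had a Bdnf UMI, against 0.717% and 0.345% in hyperplasia. Epithelial barcodes also held Bdnf, at 110.7 to 288 CPM in the 4 raGFP-Wnt1 libraries. The fibroblasts of the tumours held 0.936 and 0.547 CPM of summed epithelial markers, against 0.513 and 0.856 in hyperplasia, and with every barcode holding an epithelial-marker UMI left out the log2 fold change was 4.10 (limma adjusted p = 0.00330).

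The second ligand and both Trk receptors fell. Ntf3 was at 18.1 and 20.1 CPM in hyperplasia and at 2.62 and 6.15 in tumours (log2 fold change -2.27, SE 0.34, limma adjusted p = 0.00994). Ntrk2 was at 154 and 175 CPM and at 74.9 and 58.5 (log2 fold change -1.31, SE 0.18, limma adjusted p = 0.00843). Ntrk3 was at 7.24 and 4.49 CPM and at 0.673 and 0.148, the last from 13 UMIs (log2 fold change -4.08, SE 0.70, limma adjusted p = 0.0131). In all 3 genes both tumours lay below both hyperplasia libraries, and the share of all genes with that pattern was not counted. With hyperplasia 1 left out, the limma adjusted p was 0.0692, 0.0652 and 0.0788 for Ntf3, Ntrk2 and Ntrk3, and with hyperplasia 2 left out 0.0637, 0.0626 and 0.0537.

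Ngfr was at 1.86 and 18.0 CPM in hyperplasia and at 0.322 and 3.84 in tumours, so that the groups overlapped while each tumour lay below the hyperplasia of its own mouse. The log2 difference was -2.54 (SE 1.42, limma adjusted p = 0.206), and from -4.23 (without tumour 2) to -0.73 (without tumour 1) with 1 library left out, with -4.05 and -0.80 without hyperplasia 1 and 2. With the mouse as a replicate block in the 4 raGFP-Wnt1 libraries, Ngfr fell by 2.28 on the log2 scale (limma adjusted p = 0.0180). Sort1 was at 4.83 and 2.54 CPM and at 2.04 and 1.73 (log2 difference -0.85, SE 0.40, limma adjusted p = 0.147). Other cell-type markers also moved in these fibroblasts: summed pericyte markers were at 5.98 and 6.09 CPM in hyperplasia and 9.50 and 18.3 in tumours, with Rgs5 at 0, and summed Schwann markers at 31.2 and 34.8 and at 21.3 and 15.6, with Sox10 at 0. The part of pericyte markers in these results was not tested. With barcodes holding a UMI of a Schwann marker left out, the 4 calls of Bdnf, Ntf3, Ntrk2 and Ntrk3 were kept, with log2 fold changes of 3.65, -2.09, -1.39 and -3.85.

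Against normal gland the tumours gave the same 4 members past the threshold and Ngfr with them, in a contrast in which limma-voom called 22.8% of genes, 12.7% higher and 10.1% lower. It shares the tumour libraries with the contrast above. Bdnf rose by a log2 of 4.43 (limma adjusted p = 0.00192). The log2 fold changes were -2.15 for Ntf3 (limma adjusted p = 0.00952), -1.26 for Ntrk2 (0.00714 by the same adjustment) and -3.33 for Ntrk3 (0.0228), and -0.88 for Sort1, which did not pass (0.161). Without puberty or without the adult library, Ntf3, Ntrk2 and Ntrk3 had limma adjusted p from 0.0513 to 0.0854. Ngfr fell by 4.84 on the log2 scale (SE 1.33, limma adjusted p = 0.0444), a call lost under 8 of 17 alternatives, among them edgeR (adjusted p = 0.0775) and the runs without puberty, the adult, tumour 1 or tumour 2 (0.136, 0.135, 0.0526 and 0.0519). With 1 library left out the Ngfr value ranged from -6.53 (without tumour 2) to -3.03 (without tumour 1). Normal gland here was puberty and adult alone. Wild-type libraries outside that fit held Ngfr at 4.41 and 4.20 CPM (placebo), 7.87 (pregnancy), 0.476 (lactation), 5.75 (involution) and 63.0 and 74.8 (MPA+E). The tumours were at 0.322 and 3.84 CPM. Summed Schwann markers moved with Ngfr here, at 79.5 and 35.6 CPM in normal gland and 21.3 and 15.6 in tumours, and without barcodes holding a Schwann-marker UMI the log2 difference was -4.99 (limma adjusted p = 0.0563).

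Within the fibroblast classes of the raGFP-Wnt1 libraries, Bdnf lay higher in tumours without overlap in 6 of 6 classes, a pattern met by 6.07% of the genes tested. The paper reported no Cd36+ committed preadipocytes in tumours, and the preadipocyte class here is named by likeness only. In that class Bdnf was at 1.45 and 0.844 CPM in hyperplasia and at 81.7 and 132 in tumours. At a clustering resolution of 0.5 these Bdnf levels were 0.984 and 0.531 CPM against 55.6 and 29.2. Bdnf then lay higher in tumours in 7 of 7 classes, a pattern whose share over all genes at that resolution was not counted. In the ECM remodelling class it was at 5.72 and 2.96 CPM and at 75.01 and 76.2, and in the progenitor class at 0.528 and 0.338 and at 12.2 and 5.83. The progenitor class held the least Bdnf of the 6 classes in each tumour and differed 20.8-fold from hyperplasia. Ntf3 and Ntrk2 lay lower in tumours in 6 of 6 classes, a pattern met by 3.83% of the genes tested. At resolution 0.5 the count was 5 of 7 for Ntf3 and 6 of 7 for Ntrk2, again with no share over all genes counted. In the ECM remodelling class of that resolution Ntf3 was at 0.169 and 0.0734 CPM in hyperplasia and 0.286 and 1.01 in tumours, from at most 4 UMIs a library. Ntf3 in the preadipocyte class was at 45.8 and 60.6 CPM in hyperplasia and at 3.86 and 2.41 in tumours. Ntrk2 in the progenitor class was at 131 and 144 CPM and at 58.2 and 17.9. Ntrk3 lay lower in 3 of 6 classes, against 26.4% of genes with at least 3, in the progenitor class at 21.7 and 10.4 CPM and at 1.21 and 0.364, the last from 1 UMI. In the myofibroblastic class it gave 0 UMIs in both hyperplasia libraries, which held few barcodes of it, and 4 and 2 UMIs in tumours, under what the hyperplasia barcodes could show. Sort1 also lay lower in 3 of 6.

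The makeup of the classes differed between the tissues. The myofibroblastic class held 27 and 29 barcodes in hyperplasia and 1992 and 1156 in tumours, and in it Bdnf was at 102 and 53.4 CPM in tumours. Ngfr separated the groups in 0 of 6 classes, with tumour 2 above hyperplasia 1 in 5 of them. At resolution 0.5 Ngfr lay lower in tumours without overlap in 2 of 7 classes, and the share of all genes there was not counted. In the preadipocyte class Ngfr was at 2.18 and 46.6 CPM in hyperplasia and at 0.755 and 4.81 in tumours. An unnamed cluster led by Ramp3 and Rxfp1, present in hyperplasia alone with 74 and 91 barcodes, held 85.0 and 52.0 CPM of Bdnf.

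**Figure D5:**
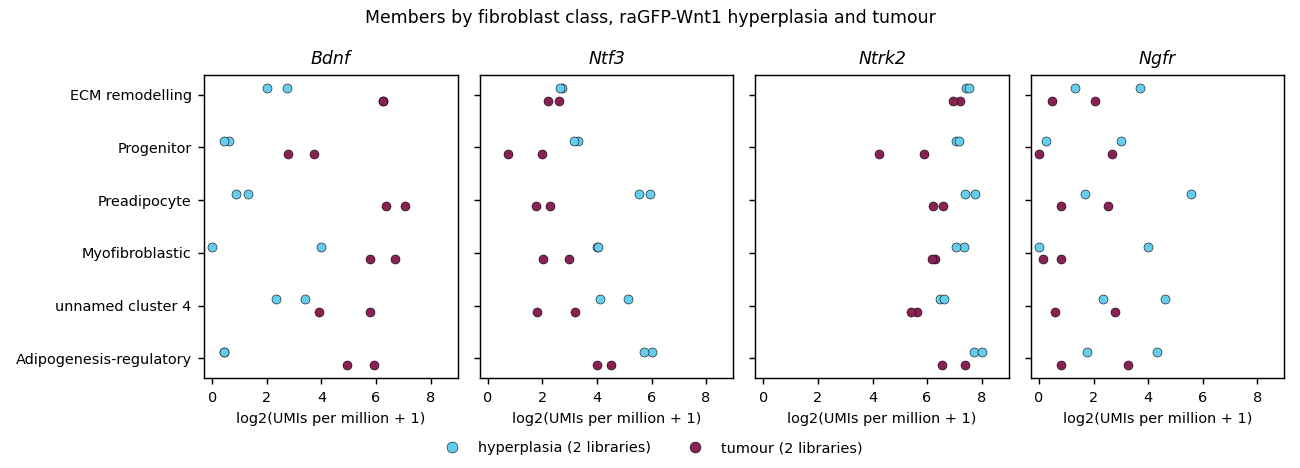
Bdnf, Ntf3, Ntrk2 and Ngfr by fibroblast class in 2 hyperplasia and 2 tumour libraries, as log2(CPM + 1), with 1 point a library. Bdnf is higher and Ntf3 and Ntrk2 are lower in tumours in each of the 6 classes shown, while the Ngfr points of the 2 tissues overlap.

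Schwann barcodes, of a cell type known for p75, were compared with fibroblasts within 5 wild-type libraries that held at least 10 of them. Together they had 82 barcodes and 295012 UMIs, at 23351.8 to 61739.8 CPM of Schwann markers. EdgeR called 25.2% of 13017 genes, 6.86% higher and 18.3% lower in Schwann barcodes. Sort1 was at 78.0 CPM in Schwann barcodes (23 UMIs) and at 4.28 in fibroblasts, a log2 fold change of 3.34 (SE 0.54, edgeR adjusted p = 8.81e-09). Ngfr was at 30.5 CPM from 9 UMIs (14.0 to 57.9) and at 43.9 in fibroblasts, with no test since Ngfr was chosen by its MPA+E level. The fibroblast level of that sum was set largely by the MPA+E libraries. Within libraries, Schwann barcodes of placebo 1 held 33.9 CPM (3 UMIs) against 4.41 in fibroblasts, those of MPA+E 1 held 48.5 (4 UMIs) against 63.0, and those of MPA+E 2 held 0 UMIs against 74.8. Those of puberty held 29.5 CPM (2 UMIs) against 34.1, and those of the adult held 0 UMIs against 26.7. In libraries outside the fit Schwann barcodes held 181 CPM in involution (3 UMIs) against 5.75, and 55.1 in placebo 2 (1 UMI) against 4.20. Pregnancy and lactation gave 0 Ngfr UMIs from 2 and 1 Schwann barcodes. So few UMIs give no common order of the 2 cell types. Ntrk2 was at 142 CPM in Schwann barcodes (42 UMIs) and at 159 in fibroblasts. Its fitted log2 fold change was -0.89 (SE 0.32, edgeR adjusted p = 0.0276), against a median of -0.67 over all genes of that fit. The call was lost without placebo 1, without MPA+E 2 or without the limit on fibroblasts (edgeR adjusted p = 0.314, 0.166 and 0.139). Ntf3 gave 0 UMIs and was called (edgeR adjusted p = 0.00478). It entered that test through the fibroblast sums, where it was high, so its call is a description only. Against a floor of 3 counts over the Schwann group it was at least 1.32-fold lower. Bdnf and Ntrk3 gave 1 UMI each.

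Lists of neurotrophin genes, 5 lists with 51 genes in all, were then counted in each fit. Of the 4 ligands, 2 were higher and 1 was lower in tumours than in hyperplasia, where 15.4% of all genes were called higher and 13.9% lower: Bdnf and Ntf5 (log2 fold change 2.56, limma adjusted p = 0.0185), the gene of neurotrophin-4, and Ntf3. Ntf5 was low throughout, at 0.0531 and 0.0552 CPM in hyperplasia and at 0.302 and 0.433 in tumours. In that fit only the tumour libraries held enough Ntf5 to meet the filter on low counts. It entered the test through the group where it was high, so its call is a description only. Epithelial barcodes of the adult and of pregnancy held Ntf5 at 29.9 and 26.8 CPM, and their part in the tumour level was not tested. Under MPA+E 0 of 4 ligands passed in edgeR, where 4.33% of all genes were called. The medians of the ligands were 0.83 in tumours against hyperplasia and -0.20 under MPA+E, against -0.01 and 0.01 over all genes tested.

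Of the 9 receptors and sorting receptors, 7 were tested in tumours against hyperplasia, where 1 rose and 3 fell, the 3 being Ntrk2, Ntrk3 and Sorl1, against 15.4% and 13.9% of all genes. Sorcs2, a relative of sortilin that also binds neurotrophin pro-forms, was at 1.06 and 0.483 CPM in hyperplasia and at 22.4 and 47.9 in tumours (log2 fold change 5.55, limma adjusted p = 0.00679). Sorl1, another relative, fell from 0.619 and 0.387 CPM to 0.0683 and 0.0456 (log2 fold change -2.98, limma adjusted p = 0.0157). The median of this list was -1.31, against -0.01 over all genes tested. Under MPA+E Ntrk3 passed out of 6 tested, Ngfr being left out of that count, where 1.64% of all genes were called lower. Sorl1 was also lower in hyperplasia than in normal gland, puberty and adult (log2 fold change -2.26, limma adjusted p = 0.0199). The placebo libraries, outside that fit, held Sorl1 at 0.590 and 0.901 CPM, against 0.619 and 0.387 in hyperplasia.

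Of 14 partners and adaptors of p75, 2 rose in tumours against hyperplasia, a share near the 15.4% of all genes. Nradd, which encodes a p75-like receptor homolog, rose by a log2 of 1.65 (limma adjusted p = 0.0134) and Maged1, an adaptor that binds p75, by 1.05 (limma adjusted p = 0.0155), after a lower level in hyperplasia than in normal gland (log2 fold change -0.91, limma adjusted p = 0.0344). Under MPA+E 0 of 14 passed in edgeR, against 4.33% of all genes, and Maged1 and Arhgdia had log2 differences of 0.18 and -0.13. Of the genes for processing of neurotrophins and p75, 13 were tested. In tumours against hyperplasia 3 were higher and 1 lower, against 15.4% and 13.9% of all genes. In hyperplasia against normal gland 4 were higher, against 7.7%, and under MPA+E 1 was lower, against 1.64%. In tumours against hyperplasia Mmp9 rose by a log2 of 4.98 and Pcsk5 by 1.22, and Plau fell by 1.54 on the log2 scale (limma adjusted p = 0.00885, 0.00609 and 0.00432). Mmp9 is a matrix protease, Pcsk5 a proprotein convertase and Plau a plasminogen activator. Under MPA+E the convertase Pcsk6 fell by 1.34 on the log2 scale (edgeR adjusted p = 0.0383). In hyperplasia against normal gland Plau, Mmp3 and Plat rose by log2 values of 1.962, 1.33 and 0.81 (limma adjusted p = 0.00592, 0.0356 and 0.0331). Normal gland was the puberty and adult libraries alone. In placebo 1 and 2, outside that fit, Plau was at 68.2 and 55.4 CPM, against 89.6 and 84.4 in hyperplasia. Mmp3 was at 752 and 628 CPM there against 1156 and 937, and Plat at 430 and 382 against 419 and 341.

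The GDNF family, related growth factors that signal through Ret, gave 7 tested genes. Gfra2, a co-receptor, fell under MPA+E by 1.04 on the log2 scale (edgeR adjusted p = 0.0323). Artn rose in tumours against hyperplasia by a log2 of 1.69 (limma adjusted p = 0.0142), and Gdnf in hyperplasia against normal gland by 2.15 (limma adjusted p = 0.0335). Each of these 3 was the 1 call of 7 in its contrast. Of all genes, 1.64% were called lower under MPA+E, and 15.4% and 7.7% higher in the other 2 contrasts. Against normal gland, tumours had 1 receptor higher and 4 lower of 7, and 6 processing genes higher and 1 lower of 13, against 12.7% of all genes higher and 10.1% lower. In Schwann barcodes Gfra1 and Gfra2 were higher by log2 values of 2.51 and 1.84, and Sorcs2 by 3.28 (edgeR adjusted p = 2.16e-06, 0.000204 and 3.85e-06).

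The 5 genes whose levels ran most like Ngfr over the 13 libraries were Greb1, Ptpn5, Nxnl2, Tgm2 and Znhit6, out of 8701 genes compared on log2(CPM + 1). Their Pearson correlations were 0.95, 0.927, 0.923, 0.907 and 0.902 and their Spearman correlations 0.940, 0.912, 0.945, 0.890 and 0.863, given as descriptions, since the 13 libraries share groups, experiments and depth. Greb1, a known estrogen-regulated gene, was at 6.03 and 6.82 CPM with placebo and 104.5 and 90.6 CPM with MPA+E. It was at 2.94 CPM in lactation and 28.6 in the adult. Ptpn5 was at 0.222 CPM in lactation, 35.3 in the adult, 3.33 and 3.90 with placebo and 15.7 and 21.1 with MPA+E. Like Ngfr, both were higher in hyperplasia 2 than in hyperplasia 1, Greb1 at 17.8 against 4.04 CPM and Ptpn5 at 8.37 against 0.372. Between members, Bdnf and Ntf3 ran most oppositely over the libraries (Pearson -0.896, Spearman -0.890), with the 2 tumours at 1 end.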

How the data were processed

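Gene by barcode UMI count matrices were deposited by the authors for 13 libraries, made with Cell Ranger 6.1.2 on mm10 per the submitters' processing notes. Barcodes were kept with 500 to 7500 genes and at most 10% mitochondrial UMIs. Fibroblast barcodes had at least 50 of 10000 UMIs from Dcn, Lum and Col1a2 and no UMI of Epcam, Pecam1, Rgs5, Sox10, Ptprc or Myog. No doublet caller was run. Raw counts were summed per library.

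MPA+E was tested against placebo, and Schwann against fibroblast barcodes with library as a block, by edgeR 4.0.16 (quasi-likelihood, TMM). Normal gland (puberty and adult), hyperplasia and tumour were tested in 1 limma-voom fit (limma 3.58.1), and DESeq2 1.42.0 was an alternative. P-values were adjusted by Benjamini-Hochberg over the whole table. The SE of an edgeR value was the size of its log2 fold change divided by the square root of its quasi-likelihood F statistic. Hyperplasia and tumour of 1 number came from the same mouse, and their deviations from the group means correlated at 0.0954 over 16001 genes. Labels do not say that placebo and MPA+E libraries of 1 number share anything. Wild-type libraries hold pooled females and raGFP-Wnt1 libraries single mice, so p-values measure the spread between such libraries. In the limma-voom fit that spread includes the difference between puberty and adult, joined as normal. It also includes the difference in age between the raGFP-Wnt1 mice. Clustering used Seurat 5.3.0 (1000 features, 30 components, resolution 0.3) without the members or markers, and classes with at least 20 barcodes in each library were compared. Detection was compared after thinning to 3000 UMIs. Intervals are exact at 95% and, without a replicate, cover counting error only.

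The members, lists and tests were chosen with earlier results of these data known. The text names the members, of each list up to 4 genes that passed (else the 2 most abundant), and the 5 genes most like Ngfr by Pearson correlation. The fits were also run on simulated counts with a fixed dispersion, the same for every gene. That setting differs from the real libraries, so those runs say little about the fits in these data. The alternatives without epithelial-marker UMIs, Schwann-marker UMIs or the Krt14 cluster were chosen after seeing the data. Some genes of the lists are not reported here.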

Additional observations from a re-analysis of the deposited data

Results flagged for a closer look

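Ntrk2 differed between fibroblast classes under the same contrast. Its ratio of MPA+E to placebo was 1.67 for progenitor barcodes but 0.229 for those of the ECM remodelling class, both libraries of a group lying on the same side each time, and the difference between the classes was not tested.

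Members were also counted in barcodes outside the fibroblast comparisons. Epithelial barcodes of pregnancy (326 barcodes) held Bdnf at 133 CPM, from 209 UMIs, and Ntrk3 at 126 CPM, from 198 UMIs. Pericyte barcodes of placebo 1 (129 barcodes) held Sort1 at 205 CPM, from 204 UMIs, and Ntrk2 at 290 CPM, from 288 UMIs. Groups of 1 or 2 libraries were too small for a test of single outlying samples.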

How the results depend on the processing

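Counts of called genes moved most. Leaving out a library of a pair leaves 1 in that arm, assumed to vary like the other libraries of the fit. For MPA+E against placebo, 678 genes became 1358 by DESeq2, 2451 with the shared library number as a replicate block, and 22 to 900 with 1 library left out (22 without placebo 1, 42 without placebo 2). Under that block, whose 2 pairs correlated at 0.396 over 15642 genes, Bdnf (1.02, edgeR adjusted p = 0.00193) and Ntf3 (-1.10, 0.00733 by the same adjustment) were called. For hyperplasia against normal, DESeq2 gave 4017 and leave-one-out runs 1 to 4810 (2 and 1 without hyperplasia 1 and 2, 8 without puberty, 183 without the adult, 4810 and 4799 without tumour 1 and 2). Tumour against hyperplasia gave 242 to 7120 (242 and 314 without hyperplasia 1 and 2) and tumour against normal 910 to 5479. The mouse as a block gave 4898. Schwann against fibroblast barcodes gave 6178 by limma-voom and 2553 to 2914 with 1 library left out.

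The Ngfr log2 difference under MPA+E was 3.82 without barcodes holding Schwann-marker UMIs and 3.83 to 4.17 with 1 library left out. The sign turned, among values that were not called, for Sort1 under MPA+E without Schwann-marker UMIs (0.053). In hyperplasia against normal it turned for Ntf3 without Schwann-marker UMIs (-0.0098) and for Sort1 with a gate of 100 (0.0079). With 1 library left out it turned there for Bdnf (-0.092 to 0.83, lowest without hyperplasia 1), Ntf3 (-0.0070 to 0.24, lowest without the adult), Ntrk2 (-0.034 to 0.14, lowest without hyperplasia 2) and Sort1 (-0.47 to 0.48, highest without hyperplasia 2, 0.30 without puberty). In Schwann barcodes it turned for Bdnf (0.70 by limma-voom) and for Ntrk3 (1.45 by limma-voom, 0.53 without the fibroblast limit, and -10.09 to 0.25 with 1 library left out, the former at 0 UMIs without MPA+E 2). The cause was not tested. The Ntrk3 ratio of pregnancy to adult was 1.62 with a gate of 100, 2.71 with other-lineage UMIs kept and 1.12 without the Krt14 cluster of pregnancy, which held 109 of 248 UMIs, and the Bdnf ratio of involution to adult was 6.69 without Schwann-marker UMIs.

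Detection differences between MPA+E and placebo, in percentage points, were 8.86 for Ngfr, -1.45 for Ntf3 and -0.859 for Ntrk3 at 2000 UMIs. Without thinning they were 27.2 for Ngfr, 3.23 for Bdnf, -5.72 for Ntf3, -3.08 for Ntrk2 (1.37 when thinned), -4.78 for Ntrk3 and -0.382 for Sort1.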
